A study of Mus musculus with 14 samples.

Results

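The integrated stress response and serine synthesis were followed in mouse intestinal organoids through 8 genes: the transcription factors Atf4, Atf3 and Ddit3, the feedback genes Trib3 and Chac1, and the amino acid enzymes Asns, Phgdh and Psat1. They were chosen by symbol, with earlier results of these data known, as 8 of the 19057 genes that the array names by 1 symbol. They were read on every probe that carries 1 of these symbols. That gave 14 probes, and all 14 were bright enough to be tested. Levels are log2 array values with a floor of about 6.7, so a difference of 1 is a doubling of the signal and differences of dim probes are understated.

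Gene expression was compared between organoids that had lost both Apc and Prox1 (called Apc-Prox1 deleted) and organoids that had lost Apc alone (Apc-deleted), in series 1 and again in series 2. Apc is the brake on Wnt signalling and Prox1 is a transcription factor; the comparison asks what the loss of Prox1 changes in Apc-mutant epithelium. Organoids were of strain C57Bl and age 2-3 months. The Apc-Prox1 deleted cultures carried villin-CreER with both Apc flox/flox and Prox1 flox/flox, and the Apc-deleted cultures carried villin-CreER with Apc flox/flox alone. Both genotypes received tamoxifen for 2 days, which switches on a Cre driven by the villin promoter in intestinal epithelium. Both were then grown for 5 days without R-Spondin1, a Wnt agonist that only Apc-mutant organoids can do without, and RNA was taken 7 days after tamoxifen. The withdrawal of R-Spondin1 acts on the loss of Apc and not on that of Prox1.

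The labels list 14 entries, but 4 of them were copies of 2 arrays under conflicting labels: 1 array stood under replicate 3 of the Apc-Prox1 deleted group in series 1 and under its replicate 2 in series 2, and 1 array under replicate 4 of that group in series 1 and under replicate 2 of the Apc-deleted group in series 2. Members of these pairs differed by at most 0.0143 log2 at any probe, against at least 1.1671 in every other pair, and all 4 were left out. Series 1 then held 2 Apc-Prox1 deleted and 4 Apc-deleted libraries, and series 2 held 2 of each, all of which correlated best with another library of their own group. Prox1 itself averaged 8.07 ± 0.31 in Apc-Prox1 deleted (SD, n = 2) and 9.81 ± 0.47 in Apc-deleted libraries (SD, n = 4) of series 1, and 9.09 ± 0.62 in Apc-Prox1 deleted and 10.48 ± 0.61 in Apc-deleted libraries of series 2 (SD, n = 2 each). It was lower over both series by 1.59 log2 (limma adjusted p = 0.000185), though signal of this probe remained above the floor in every Apc-Prox1 deleted library. A second Prox1 probe lay near the floor in Apc-Prox1 deleted libraries, at 6.93 in series 1 and 7.10 in series 2, against 8.38 and 8.63 in Apc-deleted libraries, and was lower over both series by 1.48 log2 (limma adjusted p = 8.34e-05). Of the 11 epithelial markers measured, 3 (27.3%) were higher and 1 (9.09%) lower over both series, beside 5.94% and 6.79% of all tested probes. Their mean level lay between 10.12 and 10.23 in Apc-Prox1 deleted and between 9.95 and 10.09 in Apc-deleted libraries of series 1. In series 2 it lay between 9.80 and 9.95 in Apc-Prox1 deleted and between 9.77 and 9.79 in Apc-deleted libraries. The part of these markers in the results below was not tested. Epithelial markers such as Krt8 and Lgals4 were bright (means of 13.21 and 13.64), while Epcam and Cdh17 lay near the floor at 6.74 and 6.84. The mean level of the 9 fibroblast, 6 immune and 6 endothelial markers measured lay between 6.71 and 7.23 in every library, and no tested gene of those lists passed the test in either direction. Since no label says that the replicates of a group are separate animals or cultures, the tests below weigh differences against the spread between samples that may be technical repeats.

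In the integrated stress response, kinases that sense amino acid shortage, unfolded protein, double-stranded RNA or lack of heme phosphorylate the translation factor eIF2, which slows protein synthesis while the messenger of Atf4 is translated more. ATF4 then binds promoters of genes that make, import and charge amino acids, and with CHOP, the product of Ddit3, those of genes that end the response or promote cell death. Serine synthesis branches off glycolysis through PHGDH and PSAT1, and is one of the amino acid programmes that ATF4 drives. In intestinal epithelium, a tissue of constant renewal, serine feeds one-carbon metabolism for nucleotide synthesis.

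ATF4 with its C/EBP partners binds composite sites that often read TGATGNAA, and ATF and CREB dimers bind TGACGTCA; both spellings were searched on both strands in RefSeq promoter windows (GRCm38.p6) from 250 bases before to 50 bases after each gene's start. The first was found in 4 of the 8 genes (Atf3, Trib3, Chac1 and Asns) and in 1303 of all 32817 windows, a share of 3.97%. The second was found in none of the 8 and in 1.79% of all windows. No match was found in the windows of Atf4, Ddit3, Psat1 and Phgdh, which says only that these letters are absent there. On the brightest probes, Trib3 and Chac1 differed most between the genotypes in series 1 and over both series. In series 2 Phgdh, which has no match, differed more than Trib3 (-0.83 against -0.64). Atf3 and Asns carry the same spelling and passed no test on their brightest probes. The 4 stretches below hold the matches, in capitals, and are shown for comparison between these genes. They lie at chr2:119350993-119351112 (+ strand) for Chac1, chr2:152344030-152344055 (- strand) for Trib3, chr6:7693210-7693329 (- strand) for Asns and chr1:191183380-191183499 (- strand) for Atf3. Each reads 5′ to 3′ on the gene's own strand; in Chac1, Trib3 and Atf3 the match is on the opposite strand, so the capitals are its reverse complement.
Chac1: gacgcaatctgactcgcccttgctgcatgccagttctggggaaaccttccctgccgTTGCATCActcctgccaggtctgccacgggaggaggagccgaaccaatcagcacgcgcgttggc
Trib3: agctcaggtTTACATCAgccgggcgg
Asns: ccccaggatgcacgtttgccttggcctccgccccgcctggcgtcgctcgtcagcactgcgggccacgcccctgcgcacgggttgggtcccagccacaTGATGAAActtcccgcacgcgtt
Atf3: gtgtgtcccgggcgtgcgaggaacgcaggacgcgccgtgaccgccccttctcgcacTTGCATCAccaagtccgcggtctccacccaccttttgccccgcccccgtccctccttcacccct

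Counted from the start site as base 1, the matches span bases -193 to -186 in Chac1, 15 to 22 in Trib3, -23 to -16 in Asns and -110 to -103 in Atf3. The Chac1 and Atf3 matches share the 8 letters TTGCATCA, whereas Trib3 and Asns each differ from them at the position written N. A match is a description of the letters and not evidence of binding.

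Chac1, Trib3 and Ddit3 were lower in the Apc-Prox1 deleted organoids, and the remaining 5 genes did not pass the test on their brightest probes. In series 1 that made 3 of 8 genes lower and none higher, against 4.32% of all 26342 tested probes lower, 4% higher and 8.32% in either direction. Over both series the same 3 of 8 genes were lower and none was higher, against 6.79% of tested probes lower and 5.94% higher. The 8 were chosen with earlier results of these data known, and each was counted on its brightest probe. The shares cover all tested probes, dim ones included, so they give no test of an excess. In series 2 alone no gene passed in either direction by limma, against 2.41% of tested probes lower, 1.71% higher and 4.12% in either direction. There 3 of the 8 had an unadjusted p under 0.05, and all 3 of those differences were negative. The share of all tested probes with an unadjusted p under 0.05 was not counted. This and later counts at that limit thus have nothing to be measured against. No gene was thus called lower in each series on its own, as 1.32% of tested probes were. The median log2 difference of the 8 genes was -0.55 in series 1, -0.62 in series 2 and -0.62 over both, beside medians between 0.00 and 0.01 for all tested probes. The series were not shown to differ for any of the 8 brightest probes. Over both series, each of the 3 calls was lost when the series term was left out (limma adjusted p = 0.0634 for Chac1, 0.0766 for Trib3 and 0.0754 for Ddit3) or when the deposited ratios were tested as they stand (0.68, 0.542 and 0.143), and those of Chac1 and Trib3 also with a robust variance prior (0.0844 and 0.0574). In such bulk RNA, fewer cells of a type and less RNA per cell cannot be told apart.

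**Figure D1:**
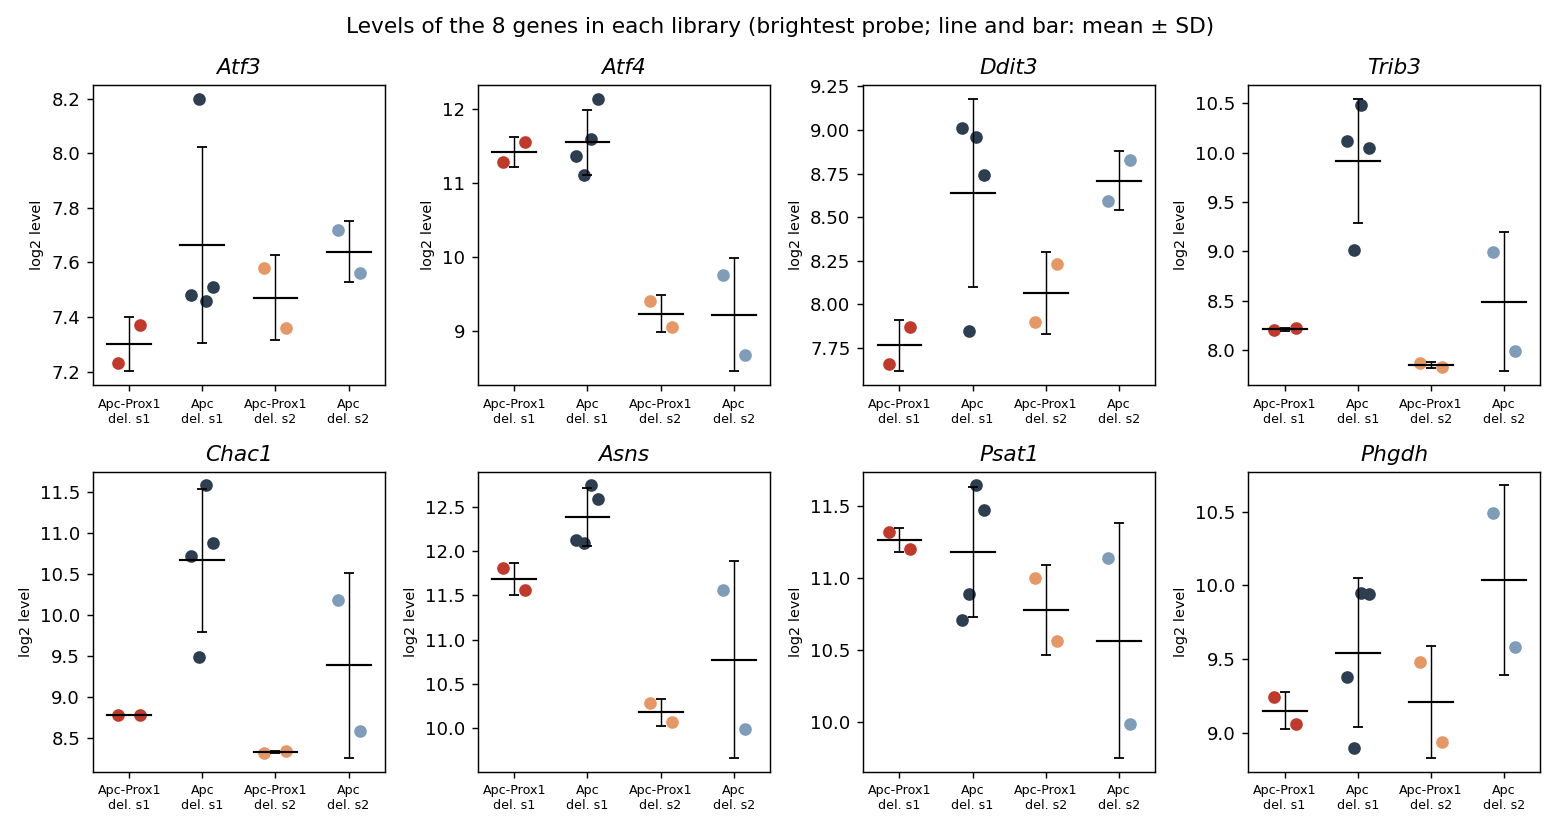
Log2 level (vertical axis) of the brightest probe of each gene in every library, 1 panel a gene, with points for libraries and a line and bar for mean ± SD; "s1" and "s2" are series 1 and series 2. Chac1 and Trib3 sit lower in every Apc-Prox1 deleted library than in every Apc-deleted library of the same series, while Atf4 and Psat1 overlap in both series.

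Chac1, a glutathione-degrading enzyme induced by ATF4 and CHOP, had the largest difference of the 8 genes on their brightest probes, in series 1 and over both series. Its level was 8.77 in both of the 2 Apc-Prox1 deleted libraries of series 1, against 10.72, 9.48, 11.58 and 10.88 in Apc-deleted libraries. Series 2 values were 8.31 and 8.33 in Apc-Prox1 deleted libraries, against 10.18 and 8.58 in Apc-deleted libraries. The groups did not overlap in either series, and the Apc-Prox1 deleted libraries were close to each other while the Apc-deleted ones of series 1 spread widely. Chac1 was 3.71-fold lower in series 1 (log2 difference -1.89, SE 0.42, limma adjusted p = 0.00811). The difference in series 2 was -1.06 (SE 0.49, interval -2.08 to -0.03, limma adjusted p = 0.281), and over both series Chac1 was 2.90-fold lower (-1.53, SE 0.34, limma adjusted p = 0.00575). The series 2 value rests on 1 library: without Apc-deleted series 2 replicate 1 it was -0.26 for Chac1 (limma adjusted p = 0.888), and without Apc-deleted series 2 replicate 3 it was -1.86 (0.0636). The series 1 call of Chac1 was lost without either Apc-Prox1 deleted library of that series (limma adjusted p = 0.0804 without replicate 1 and 0.0888 without replicate 2), and with no variance trend (0.082), a robust prior (0.139) or the deposited ratios (0.421).

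Trib3, a pseudokinase that binds and restrains ATF4 and CHOP as feedback, was measured by 3 probes. On the brightest it was 8.20 and 8.22 in Apc-Prox1 deleted libraries of series 1, against 10.12, 9.01, 10.48 and 10.05 in Apc-deleted libraries. In series 2 it was 7.87 and 7.83 in Apc-Prox1 deleted libraries, against 8.99 and 7.99 in Apc-deleted libraries. As for Chac1, no Apc-Prox1 deleted library reached the lowest Apc-deleted library of its series. Trib3 was 3.26-fold lower in series 1 (log2 difference -1.70, SE 0.30, 95% interval -2.34 to -1.07, limma adjusted p = 0.00154) and 2.37-fold lower over both series (-1.25, SE 0.26, limma adjusted p = 0.00448). The series 2 difference was -0.64 (SE 0.35, interval -1.37 to 0.10, limma adjusted p = 0.389), and -0.14 without Apc-deleted series 2 replicate 1 (0.924), or -1.14 without replicate 3 (0.151). The call of Trib3 in series 1 held whichever single library was left out, and was lost with the deposited ratios (limma adjusted p = 0.237). The other 2 probes of Trib3, which lie nearer the floor, passed over both series only, with Trib3 differences of -0.44 (limma adjusted p = 0.0318) and -0.39 (0.0403). Each lost that call without either series 1 library of the Apc-Prox1 deleted group, without replicate 1 of that group in series 2, without Apc-deleted replicate 1 or 4 of series 1, or without Apc-deleted replicate 1 of series 2, at adjusted p between 0.056 and 0.151.

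**Figure D2:**
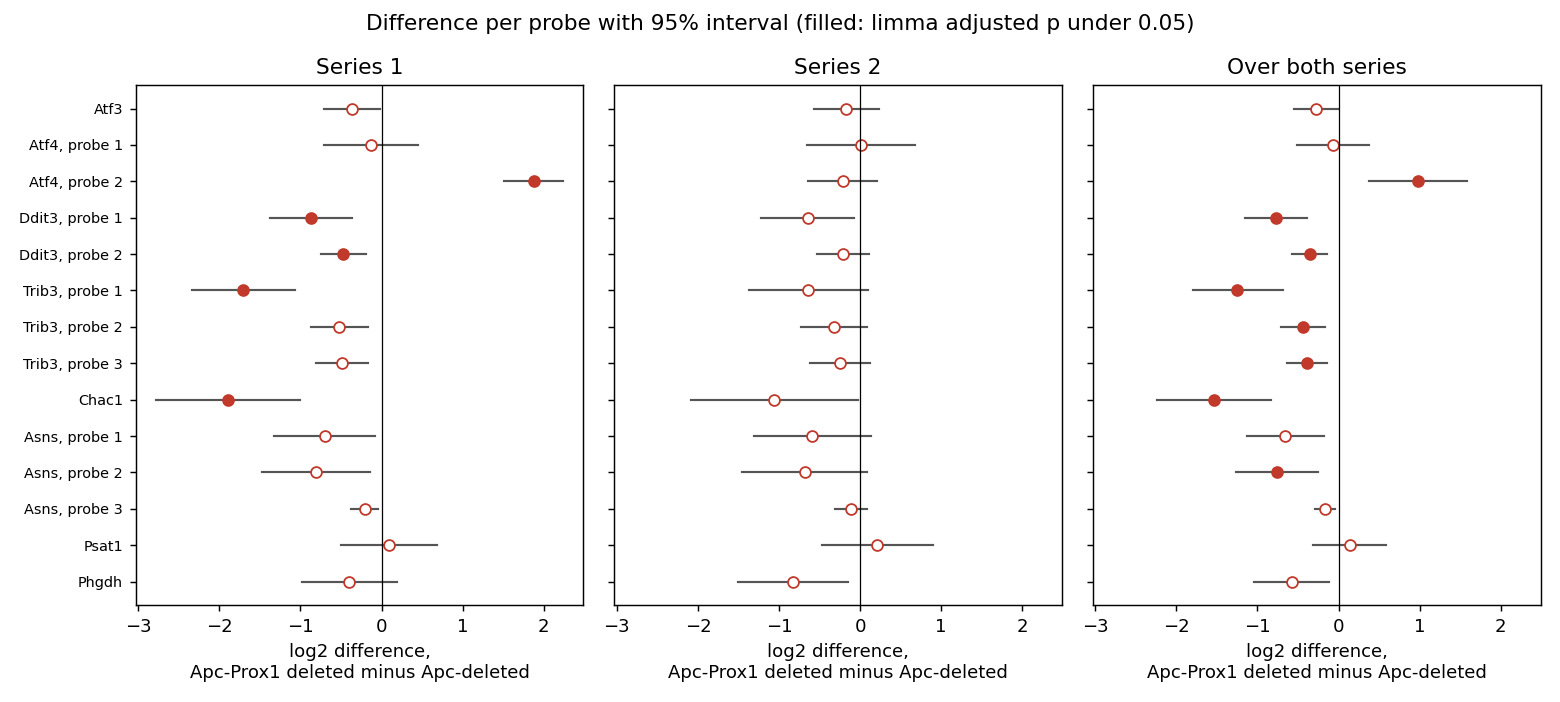
Log2 difference, Apc-Prox1 deleted minus Apc-deleted (horizontal axis), of each of the 14 probes with its 95% interval, in series 1, series 2 and over both; filled points have a limma adjusted p under 0.05. Chac1, Trib3 and Ddit3 lie left of 0 in all 3 panels, and probe 2 of Atf4 lies far right of 0 in series 1 and slightly left of 0 in series 2.

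Ddit3, which encodes the transcription factor CHOP, was measured by 2 probes. The brighter gave 7.66 and 7.87 in Apc-Prox1 deleted libraries of series 1, against 9.01, 7.85, 8.96 and 8.74 in Apc-deleted libraries. Series 2 gave 7.90 and 8.23 in Apc-Prox1 deleted libraries, against 8.59 and 8.83 in Apc-deleted libraries. The groups overlapped in series 1 only through Apc-deleted replicate 2, and did not overlap in series 2. Ddit3 was 1.83-fold lower in series 1 (log2 difference -0.87, SE 0.24, 95% interval -1.37 to -0.37, limma adjusted p = 0.0285) and 1.71-fold lower over both series (-0.77, SE 0.18, limma adjusted p = 0.00892), with -0.64 in series 2 (SE 0.27, limma adjusted p = 0.237). Without Apc-deleted series 1 replicate 2 both series passed, with Ddit3 differences of -1.13 (limma adjusted p = 0.000178) and -0.64 (0.0315). The series 2 difference itself did not change, and only its p did, which draws on a spread shared with series 1. With the series 2 libraries alone Ddit3 did not pass (limma adjusted p = 0.101). In series 1 Ddit3 did not pass without replicate 1 of the Apc-Prox1 deleted group (limma adjusted p = 0.265), without replicate 2 of that group (0.134) and without Apc-deleted series 1 replicates 1, 3 or 4 (0.0744, 0.0608 and 0.0657), and over both series it did not pass without that replicate 1 of the Apc-Prox1 deleted group (0.0524). The series 1 call of Ddit3 was also lost with no variance trend (limma adjusted p = 0.123), a robust prior (0.0744), all 14 entries (0.267), the deposited ratios (0.217) and a replicate block (0.1), and its pooled call with all 14 entries (0.164). The dimmer Ddit3 probe was 1.38-fold lower in series 1 (limma adjusted p = 0.0336) and 1.28-fold lower over both series (0.0325); in series 1 the call was lost without any 1 library of that series other than Apc-deleted replicate 2 (0.0623 to 0.28), and over both series without any of those or without replicate 1 of either genotype in series 2 (0.0523 to 0.151).

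Atf4, the transcription factor at the centre of the response, gave different answers on its 2 probes. On the brightest it was 11.28 and 11.56 in Apc-Prox1 deleted libraries of series 1, against 11.36, 11.11, 11.60 and 12.14 in Apc-deleted libraries. In series 2 it was 9.41 and 9.06 in Apc-Prox1 deleted libraries, against 9.76 and 8.68 in Apc-deleted libraries. The groups overlapped in both series, and the difference over both was -0.07 (SE 0.21, 95% interval -0.51 to 0.37, limma adjusted p = 0.891). That interval spans changes in both directions, so the groups are not shown to be alike. Messenger level is not a measure of how much ATF4 protein is made.

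The second Atf4 probe read 8.76 and 9.16 in Apc-Prox1 deleted libraries of series 1, against 7.07, 6.94, 7.13 and 7.20 in Apc-deleted libraries. In series 2 it read 9.90 and 9.75 in Apc-Prox1 deleted libraries, against 10.38 and 9.70 in Apc-deleted libraries. It was thus 3.67-fold higher in series 1 (log2 difference 1.88, SE 0.17, limma adjusted p = 3.25e-06), without overlap, and overlapped in series 2 (-0.22, SE 0.20, limma adjusted p = 0.666). The difference between the series on this Atf4 probe was 2.09 (SE 0.27, 95% interval 1.53 to 2.65, limma adjusted p = 0.000407), and both this and the series 1 call passed under every alternative that gave a value. The pooled value of this Atf4 probe, 0.98 (limma adjusted p = 0.0319), averages the unlike series and lost its call without any 1 library of series 1 (0.0541 to 0.213). Only 0.562% of tested probes differed between the series in this test. The disagreement is between 2 probes of 1 gene on the same arrays, and its cause was not tested. In series 2 the second Atf4 probe read higher than the first in every library. The first was thus brightest in the mean of all libraries kept, and not in series 2.

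Atf3, a stress-induced repressor and activator downstream of ATF4, was 7.23 and 7.37 in Apc-Prox1 deleted libraries of series 1, against 7.48, 8.20, 7.46 and 7.51 in Apc-deleted libraries. In series 2 it was 7.58 and 7.36 in Apc-Prox1 deleted libraries, against 7.72 and 7.56 in Apc-deleted libraries. Every Apc-Prox1 deleted library of series 1 was below every Apc-deleted one, but the groups of series 2 overlapped. The difference was -0.36 in series 1 (SE 0.16, limma adjusted p = 0.22) and -0.28 over both series (SE 0.13, limma adjusted p = 0.172). All values of Atf3 lay at or below 8.20, near the floor.

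Asns, asparagine synthetase, was measured by 3 probes. The brightest gave 11.81 and 11.56 in Apc-Prox1 deleted libraries of series 1, against 12.12, 12.09, 12.74 and 12.59 in Apc-deleted libraries, with no overlap. In series 2 it gave 10.29 and 10.07 in Apc-Prox1 deleted libraries, against 11.56 and 9.99 in Apc-deleted libraries, with overlap. The differences were -0.70 in series 1 (SE 0.30, limma adjusted p = 0.182), -0.59 in series 2 (SE 0.34, 0.425) and -0.65 over both (SE 0.22, 0.0673). Here the value of series 2 turned on 1 of its Apc-deleted libraries: it was 0.19 for Asns without replicate 1 (limma adjusted p = 0.828) and -1.38 without replicate 3 (0.00871). A second Asns probe passed over both series (1.69-fold lower, limma adjusted p = 0.0485) and the dimmest did not (-0.17, 0.091). That second Asns call was lost without any 1 library (0.0513 to 0.174) except Apc-deleted replicate 2 of series 1 and Apc-deleted replicate 3 of series 2.

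Psph, another gene of serine synthesis, averaged 6.69, at the floor, and was not tested. The 2 enzymes of serine synthesis among the 8 genes did not pass the test in either series. Phgdh, which catalyses its first step, was 9.24 and 9.06 in Apc-Prox1 deleted libraries of series 1, against 9.38, 8.90, 9.95 and 9.94 in Apc-deleted libraries. In series 2 it was 9.48 and 8.94 in Apc-Prox1 deleted libraries, against 10.49 and 9.58 in Apc-deleted libraries. The groups overlapped in series 1 and did not in series 2, with differences of -0.40 (SE 0.28, limma adjusted p = 0.503) and -0.83 (SE 0.32, 95% interval -1.50 to -0.15, limma adjusted p = 0.19), and -0.58 over both (SE 0.22, 0.094). Its series 2 value was -0.37 without Apc-deleted replicate 1 and -1.28 without Apc-deleted replicate 3 (limma adjusted p = 0.727 and 0.069). Without Apc-deleted series 1 replicate 2 the pooled Phgdh value was -0.71 and passed (limma adjusted p = 0.0181).

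On the brightest probes the pooled differences of 7 genes were negative, while the second Atf4 probe was positive at 0.98 (limma adjusted p = 0.0319). Psat1, which catalyses the second step, had a positive pooled difference. It was 11.32 and 11.20 in Apc-Prox1 deleted libraries of series 1, against 10.71, 10.89, 11.64 and 11.47 in Apc-deleted libraries, and 11.00 and 10.56 in Apc-Prox1 deleted libraries of series 2, against 11.14 and 9.99 in Apc-deleted libraries. The Apc-Prox1 deleted values lay inside the Apc-deleted range in both series. The pooled difference of Psat1 was 0.14 (SE 0.21, 95% interval -0.31 to 0.59, limma adjusted p = 0.753).

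Across the brightest probes, 4 genes had every Apc-Prox1 deleted library below every Apc-deleted library in series 1 (Atf3, Trib3, Chac1 and Asns), against 14% of tested probes. In series 2 they were also 4 (Ddit3, Trib3, Chac1 and Phgdh), against 20.3% of tested probes. Trib3 and Chac1 did so in both series, against 7.15% of tested probes. None of the 8 was higher throughout on its brightest probe, in series 1 against 15.7% and in series 2 against 20.7% of tested probes.

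The Apc-deleted libraries were not alike. In series 1, replicate 2 was the lowest of the 4 in 6 of the 8 genes, as it was in 27.2% of all tested probes, and it was the highest for Atf3. Replicate 3 was the highest in 5 of the 8, as in 22.9% of tested probes. In series 2, Apc-deleted replicate 1 was above replicate 3 in 7 of the 8 genes, as in 52% of tested probes, and the exception was Ddit3.

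**Figure D3:**
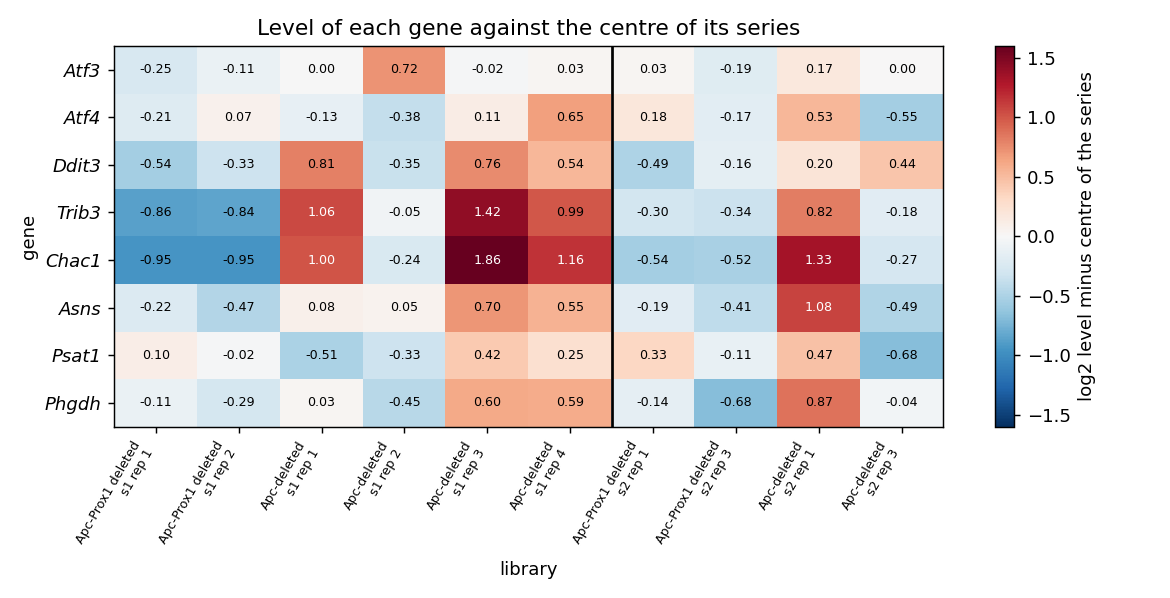
Log2 level of the brightest probe of each gene (rows) in each library (columns) minus the centre of its series, the mean of the 2 genotype means; red is above and blue below that centre, and the line separates series 1 from series 2. Chac1 stood at -0.95 in the Apc-Prox1 deleted libraries of series 1, against 1.86 in Apc-deleted series 1 replicate 3; replicate 1 of the Apc-deleted group in series 2 was above the centre in all 8 genes.

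Levels were also compared between the genes across the 10 libraries after each series was centred, as a description in which every pair shares its libraries and the genotype difference. Trib3 and Chac1 ran closest together (Pearson r = 0.98), followed by Chac1 with Asns and Asns with Phgdh (0.88 each) and Ddit3 with Trib3 (0.86). Psat1 correlated with Atf4 at 0.80 but with Trib3 at 0.24, and the correlations of Atf3 with the other genes lay between -0.17 and 0.29. With each of the 4 groups centred, so that the genotype difference was removed, Trib3 and Chac1 still correlated at 0.99, Asns and Psat1 at 0.94 and Psat1 and Phgdh at 0.90. The Apc-Prox1 deleted groups had an SD of at most 0.03 for Trib3 and Chac1, so the value of that pair rests on the Apc-deleted libraries. In groups of 2 libraries the centred values mirror each other. Apc-deleted replicates 1 and 3 of series 2 lay far apart for Asns (11.56 and 9.99), Psat1 (11.14 and 9.99) and Phgdh (10.49 and 9.58). The correlations of Psat1 with Asns and with Phgdh thus lean on these 2 libraries. Other pairs did not run together within the groups: Atf3 correlated with Ddit3 at -0.94, with Trib3 at -0.67 and with Chac1 at -0.60, and Ddit3 with Asns and with Psat1 at 0.01 each. Apc-deleted series 1 replicate 2 stood apart from its group for both Atf3 (8.20) and Ddit3 (7.85), and the correlations were not recomputed without it.

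Among 13466 other genes, the 5 most like Trib3 over the 10 libraries were Cryzl1 (r = 0.98), Hint2 (0.979), Lgi2 (0.976), Cga (0.974) and Ndfip1 (0.966). Their pooled differences lay between -0.13 and -0.64, a direction set by the choice itself, since the genotype difference was left in the ranking. Lgi2 and Cga lay near the floor, at means of 6.91 and 6.77. Cga averaged 6.99 in Apc-deleted libraries of series 1 and at most 6.66 in the other groups. The 5 most like Psat1 were Mars1 (0.968), Cobl (0.958), Slc66a2 (0.952), Eif3j1 (0.952) and Rab6a (0.933). Mars1 is the methionyl-tRNA synthetase.

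Of 103 further genes listed for the pathway, 93 were measured and 86 were tested. These lists were also chosen with earlier results of these data known. Over both series 9 of them (10.5%) were lower and 3 (3.49%) higher in Apc-Prox1 deleted organoids, beside 6.79% and 5.94% of all tested probes. In series 1 it was 9 lower and 1 higher, beside 4.32% and 4% of all tested probes. In series 2 none passed by limma in either direction, beside 4.12% of all tested probes, and 16 had an unadjusted p under 0.05. The median difference over both series was 0.00. With no series term, each pathway gene named below as called over both series lost its call except Vldlr, at limma adjusted p between 0.0528 (Xbp1) and 0.28 (Slc1a4); Gpt2 was not recomputed. The deposited ratios ended the pooled calls of Aldh1l2 (0.134), Mthfd2 (0.0527), Slc7a11 (0.202), Vldlr (0.0967) and Herpud1 (0.09), and a robust prior those of Aldh1l2 (0.109) and Slc7a11 (0.116).

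**Figure D4:**
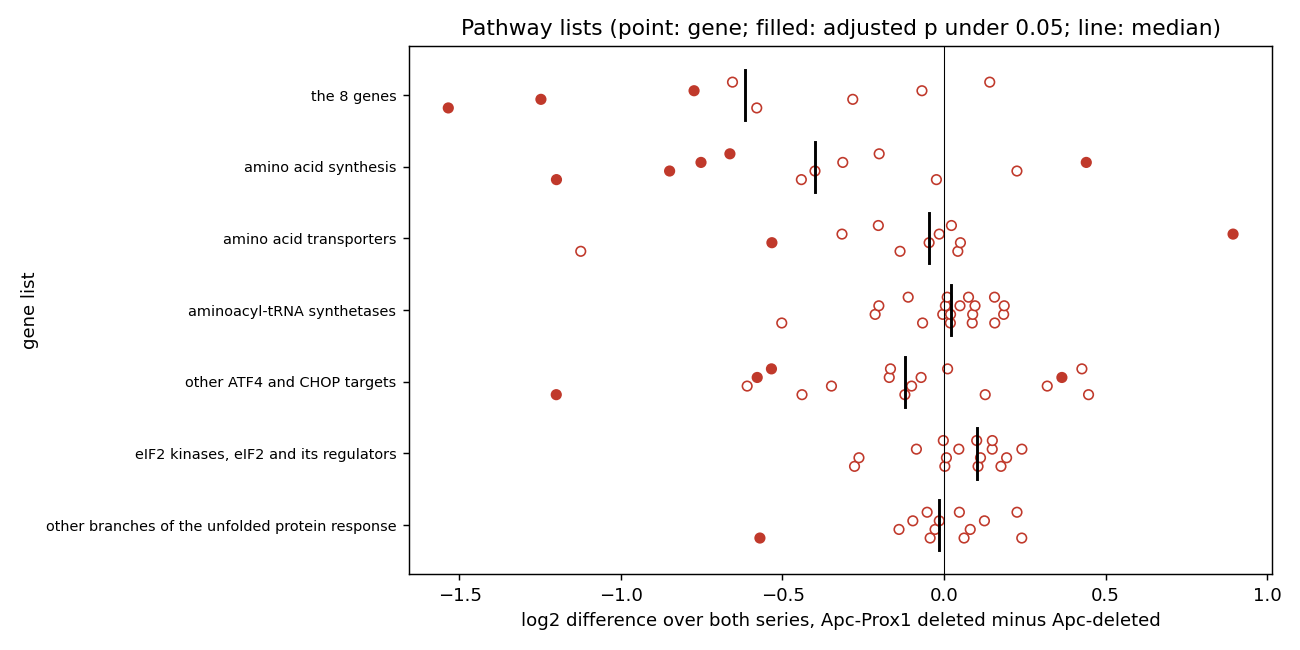
Log2 difference over both series, Apc-Prox1 deleted minus Apc-deleted (horizontal axis), of each tested gene in the 8 genes and the 6 pathway lists; filled points have a limma adjusted p under 0.05 and the line is the median. The 8 genes and amino acid synthesis have medians of -0.62 and -0.40, and the other 5 lists lie between -0.12 and 0.10.

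Enzymes of amino acid and one-carbon synthesis had the lowest median of the lists, -0.40. Of 11 tested genes 4 (36.4%) were lower and 1 (9.09%) higher, beside 6.79% and 5.94% of all tested probes. Aldh1l2, the mitochondrial formyltetrahydrofolate dehydrogenase, was 7.63 and 7.06 in Apc-Prox1 deleted libraries of series 1, against 8.09, 8.08, 9.55 and 9.20 in Apc-deleted libraries. In series 2 Aldh1l2 was 6.96 and 7.08 in Apc-Prox1 deleted libraries, against 8.64 and 7.30 in Apc-deleted libraries, again without overlap. It was 2.30-fold lower over both series (log2 difference -1.20, SE 0.28, limma adjusted p = 0.00945). Mthfd2, the mitochondrial enzyme of the same folate route, was 1.68-fold lower (limma adjusted p = 0.0122), Aldh18a1, which starts proline synthesis, 1.58-fold lower (0.0156). The remaining lower gene was Gpt2, a mitochondrial alanine aminotransferase (log2 difference -0.85, limma adjusted p = 0.0229), which is named after its value was seen and was not recomputed under the alternatives. Mthfd1, the cytosolic folate enzyme, was 1.36-fold higher (limma adjusted p = 0.0156). Among the brightest genes that did not pass were Got2 (0.23, adjusted p = 0.107) and Shmt1 (-0.20, 0.291). Without Apc-Prox1 deleted series 1 replicate 1 the calls of Mthfd2 (limma adjusted p = 0.0543), Mthfd1 (0.0715) and Aldh18a1 (0.07) were lost, and without replicate 2 of that group those of Aldh1l2 (0.0621), Mthfd2 (0.0658), Mthfd1 (0.0726) and Aldh18a1 (0.087); Aldh18a1 was also lost without Apc-deleted series 2 replicate 1 (0.0517).

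Among 11 amino acid transporters 1 was lower and 1 higher (9.09% each), beside 6.79% lower and 5.94% higher of all tested probes, and their median was -0.05. Slc1a4, a transporter of neutral amino acids including serine, was 1.45-fold lower (log2 difference -0.53, SE 0.13, limma adjusted p = 0.0106). Slc7a11, the cystine and glutamate exchanger and an ATF4 target, was 1.86-fold higher (0.89, SE 0.24, limma adjusted p = 0.0198). Slc7a11 was 8.95 and 8.73 in Apc-Prox1 deleted libraries of series 1, against 7.53, 7.57, 8.02 and 7.86 in Apc-deleted libraries, and 9.40 and 8.65 in Apc-Prox1 deleted libraries of series 2, against 9.21 and 7.58 in Apc-deleted libraries. The groups of Slc7a11 did not overlap in series 1 and overlapped in series 2. Slc7a11 did not pass without replicate 1 (limma adjusted p = 0.0941) or replicate 2 (0.0654) of the Apc-Prox1 deleted group in series 1, without replicate 1 of that genotype in series 2 (0.0684) and without Apc-deleted series 2 replicate 3 (0.0677), and Slc1a4 did not pass without replicate 2 of the Apc-Prox1 deleted group in series 1 (0.09). The bright transporter Slc38a2 did not pass (-0.32, 0.214).

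None of 19 aminoacyl-tRNA synthetases, which attach amino acids to their tRNAs and many of which ATF4 induces, passed the limma test over both series. Of all tested probes 12.7% passed in either direction. Of these synthetases 1 had an unadjusted p under 0.05, and their median was 0.02. The 2 brightest, Gars and Lars, differed by 0.09 (limma adjusted p = 0.617) and -0.21 (0.457). None of 15 tested genes for eIF2, its kinases and its regulators passed by limma either, with 3 at an unadjusted p under 0.05 and a median of 0.10.

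Among 17 other tested targets of ATF4 and CHOP, 3 (17.6%) were lower and 1 (5.88%) higher over both series, with a median of -0.12. Of all tested probes 6.79% were lower and 5.94% higher. Vldlr, the very low density lipoprotein receptor, was 8.49 and 8.14 in Apc-Prox1 deleted libraries of series 1, against 9.41, 8.93, 10.36 and 9.77 in Apc-deleted libraries. In series 2 Vldlr was 8.42 and 8.59 in Apc-Prox1 deleted libraries, against 10.06 and 9.07 in Apc-deleted libraries, without overlap in either series. It was 2.30-fold lower (log2 difference -1.20, SE 0.23, limma adjusted p = 0.00221) and kept that call without any single library. Cebpg, a dimer partner of ATF4, was 1.45-fold lower (limma adjusted p = 0.0105), Herpud1, a component of endoplasmic reticulum protein degradation, 1.49-fold lower (0.0415), and Sesn2, a stress-induced inhibitor of mTORC1, 1.29-fold higher (0.0281). Without Apc-Prox1 deleted series 1 replicate 1 all 3 of these calls were lost (limma adjusted p = 0.0543 for Cebpg, 0.0504 for Sesn2 and 0.183 for Herpud1), and without replicate 2 of that group those of Sesn2 (0.138) and Herpud1 (0.148). Both were also lost without replicate 1 of that genotype in series 2 (0.0905 and 0.0696), Sesn2 without Apc-deleted replicate 3 of series 2 (0.0743), and Herpud1 without Apc-deleted replicate 3 (0.0677) or 4 (0.0841) of series 1 or Apc-deleted replicate 1 of series 2 (0.116). Atf5, a factor related to ATF4, and Stc2, a secreted glycoprotein, passed the test in series 1 (-0.94, limma adjusted p = 0.026, and -0.73, 0.0492) and not over both; their series were not shown to differ. The Atf5 call was lost without either Apc-Prox1 deleted library of series 1 or without Apc-deleted replicate 3 or 4 of series 1 (0.0572 to 0.241), and that of Stc2 without any 1 library other than Apc-deleted replicate 2 of series 1 (0.0542 to 0.329). Nupr1 and Ddit4, both bright, did not pass (-0.17, 0.75, and -0.07, 0.9).

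In the other branches of the unfolded protein response, 1 of 13 tested genes (7.69%) was lower and none higher, with a median of -0.02. That is near the share of all tested probes that were lower, 6.79%, while 5.94% were higher. That gene was Xbp1, the transcription factor of the IRE1 branch, at 11.10 and 10.91 in Apc-Prox1 deleted libraries of series 1, against 11.88, 11.56, 11.70 and 11.70 in Apc-deleted libraries. In series 2 Xbp1 was 10.68 and 11.32 in Apc-Prox1 deleted libraries, against 11.41 and 11.37 in Apc-deleted libraries. The groups did not overlap in either series, although replicate 3 of each genotype in series 2 lay only 0.05 apart. Xbp1 was 1.48-fold lower over both series (-0.57, SE 0.13, limma adjusted p = 0.00789), a call that did not hold without replicate 2 of the Apc-Prox1 deleted group in series 1 (0.0606). The chaperones Hsp90b1 and Calr did not pass, at -0.01 (limma adjusted p = 0.962) and 0.13.

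Of the pathway genes with a promoter window, 14 of 75 held TGATGNAA. Of the 8 lower genes that had a window 3 did (Slc1a4, Vldlr and Herpud1), beside 3.97% of all windows. A gene was counted if any of its windows held the match, whereas that share is of single windows. The lists include targets of ATF4 by choice, so these counts are only a description.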

How the data were processed

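The authors deposited, per the labels, Illumina bead array values of biotinylated cRNA. The deposited values are a ratio: every probe has a median of 1 in each series, and each was read as log2 expression over that probe's median in the series. Divisors were searched from 6.0 to 16.0 in steps of 0.005 so that all values became whole steps of 0.01 log2; of 45281 probes, 45248 were recovered and 33 left out, and 5801 had 1 possible divisor in both series. For other probes the smallest was taken (Atf3, all Trib3 probes, the second Ddit3 probe and the dimmest Asns probe among the 14); a larger divisor would raise level and difference. Background correction, normalization and software are not given in the sources used here. A further table was not used, since its 28 columns match no label; so no detection p-values were available for the filter.

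Recovered log2 values were quantile normalized over 14 entries, and 10 libraries kept. Probes above the array's 50th percentile (about 6.78) on at least 3 libraries were tested (26342; 18906 removed). Linear models were fitted in limma 3.58.1 (R 4.3.3, lmFit, then eBayes with trended variance). Differences within a series came from a model of the 4 groups over all 10 libraries, with 6 residual degrees of freedom. The spread was thus shared between the series, and each test of series 2 also drew on the spread in series 1. The model over both series had a series term and 7 residual degrees of freedom. P-values were Benjamini-Hochberg adjusted over all tested probes, threshold 0.05. Each gene is given by its brightest probe, by the mean of the libraries kept. All member probes are given too. The fit was tested on simulated data. The array number limits the precision.

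The 8 genes and the pathway lists were chosen with earlier results of these data known. Genes named are the 8, and in each list up to 4 called genes with the smallest p over both series, up to 2 called in 1 series only and the 2 brightest not called; likeness was sought for Trib3 and Psat1 only. Alternatives covered normalization, filter, variance prior, array weights, entries used, series term, scale, replicate block and leaving out each library. Same-numbered samples did not deviate together (correlations of -0.025 and 0.191 in series 1 and 0.091 in series 2), so numbers were not taken as pairs.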

Additional observations from a re-analysis of the deposited data

Results flagged for a closer look

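The second Atf4 probe (ILMN_1223734) differed between the series: its Apc-Prox1 deleted minus Apc-deleted difference in series 1 exceeded that in series 2 by 2.09 log2 (limma adjusted p = 0.000407). Within the 4 Apc-deleted libraries of series 1, replicate 2 stood above the others for Atf3, at 8.2 against 7.46 to 7.51, and below them for Nupr1, at 11.03 against 11.75 to 11.88. Replicate 3 stood above the others for Aldh18a1, at 10.59 against 9.96 to 10.02, and replicate 1 below them for Gars, at 13.35 against 13.68 to 13.74. About 1 in 20 groups is flagged in this way by chance, and no cause was tested.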

How the results depend on the processing

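Under 24 alternatives, 69 named values were recomputed; of 27 called values 25 lost the call at least once and 1 turned round. The second Atf4 probe in series 1 and its difference between series kept their calls throughout; its pooled value of 0.98 was -0.22 with series 2 libraries alone. Of the 8 genes, 3 were lower in series 1: 1 with no variance trend, 1 with a robust prior, 0 with the deposited ratios, and 1 to 4 without single libraries. Over both series 3 were lower: 1 with a robust prior, 5 with array weights, 0 with series 2 alone, the deposited ratios or no series term, and 2 to 4 without single libraries. In series 2 the count of 0 became 1 with a replicate block (Phgdh, adjusted p = 0.0191) and 0 to 1 without single libraries. Counts of 3 can hide exchanges: in series 1 the replicate block lost Ddit3 (0.1) and gained Atf3 (0.0264), and with all 14 entries Ddit3 was lost (0.267 in series 1, 0.164 over both) and Asns gained (0.0197 and 0.0281). The genes lost in series 1 with no variance trend or a robust prior were Chac1 and Ddit3. The pooled calls of Chac1, Trib3 and Ddit3 with the deposited ratios had adjusted p of 0.68, 0.542 and 0.143, and with no series term 0.0634, 0.0766 and 0.0754. Of the pathway genes' pooled calls, no variance trend ended those of Aldh1l2 (0.0605), Mthfd2 (0.0507), Slc7a11 (0.0845), Sesn2 (0.0527) and Herpud1 (0.0969), the replicate block those of Mthfd1 (0.0597), Aldh18a1 (0.056), Slc1a4 (0.0651), Cebpg (0.0801) and Herpud1 (0.161), and all 14 entries those of Mthfd1 (0.133), Slc1a4 (0.0556) and Sesn2 (0.0647).

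Probes called in series 1 (2191) were 4610 with array weights and 740 to 2587 without single libraries. In series 2 (1085) they were 372 with cyclic loess, 393 as recovered, 170 with all 14 entries, 568 with series 2 alone, 360 with the deposited ratios and 411 to 1262 without single libraries. Over both series (3353) they were 5096 with array weights, 568 with series 2 alone, 1996 with the replicate block, 917 with no series term and 1916 to 3808 without single libraries. For the difference between series (148) they were 64 with the filter on all libraries, 73 with no variance trend, 54 with all 14 entries, 59 with the deposited ratios, 229 with the replicate block and 66 to 172 without single libraries. The filter on at least 2 libraries was chosen after seeing the data. Signal near the floor limits Atf3, the dim probes of Trib3 and Ddit3, and the dimmest Asns probe.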

Other observations

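The arrays deposited under conflicting labels gave these levels on the brightest probes. The array listed as Apc-Prox1 deleted in both series read 8.57 for Chac1, 7.62 for Trib3, 8.65 for Ddit3, 9.17 for Atf4, 9.90 for Asns, 10.72 for Psat1 and 9.43 for Phgdh. The array listed as Apc-Prox1 deleted in series 1 and Apc-deleted in series 2 read 8.52 for Chac1, 7.73 for Trib3, 8.53 for Ddit3, 9.25 for Atf4, 10.33 for Asns, 10.85 for Psat1 and 9.80 for Phgdh. Atf3 read 7.59 on the first of these arrays and 8.16 on the second. On Atf4 both lay inside the series 2 range (8.68 to 9.76) and below every series 1 library (11.11 or more). Counted in series 2 under their labels there, they would make Ddit3 overlap, as 8.65 exceeds the 8.59 of Apc-deleted replicate 1. Trib3 and Chac1 would overlap too, as 7.73 lies below 7.83 and 8.57 above 8.52, and Phgdh would not. Counted in series 1 as labelled, both would stay below every Apc-deleted library there for Chac1 and Trib3. Apc-deleted replicate 3 of series 2 also lay below all of those libraries, at 8.58 for Chac1 and 7.99 for Trib3. That order thus cannot tell genotype from the level of the series.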
